A study of Mus musculus with 32 samples.

Results

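The 4 wild-type (WT) libraries made from 50 ng of total RNA held the transcriptome of normal mouse frontal cortex as 3'Pool-seq sees it, and they are described here as 4 libraries of the 32 in the series. They were chosen by their labels alone, genotype WT and an input of 50 ng per reverse transcription reaction, and no measured value entered the choice. The mice were 3-month-old C57BL/6 animals without the GFAP-IL6 transgene, and the frontal cortex of each was dissected, snap-frozen and extracted for total RNA. The only other libraries used are the 4 WT libraries made from 10 ng, whose replicate numbers, 1 to 4, match those at 50 ng. The labels do not say whether a number marks a mouse, an RNA preparation or an index primer, so these cannot be told apart, and a p-value then measures only the spread between libraries.

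Frontal cortex is a mixture of glutamatergic and GABAergic neurons, astrocytes, oligodendrocytes and their progenitors, microglia and vascular cells. Neurons there carry a heavy load of mitochondria and of synaptic and calcium-signalling transcripts, whereas oligodendrocytes devote much of their mRNA to a few myelin proteins. In 3'Pool-seq an oligo-dT primer starts the cDNA at a run of A, so that a transcript contributes reads from its 3' end whatever its length. Levels are therefore given in counts scaled to a fixed library total (CPM, counts per 1e6 counts), not divided by length. In bulk tissue, fewer cells of a type and less RNA per cell cannot be told apart.

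The 4 libraries held 3613561, 1329425, 3593697 and 7538356 counts for WT 1 to WT 4. A gene with 0 counts could still lie at up to 0.830, 2.26, 0.835 and 0.398 CPM in these libraries, the level of 3 counts, which covers counting error only. In every one of the 8 groups of the series number 2 was the shallowest and number 4 the deepest. WT 3 stood apart from the others in markers of choroid plexus, the epithelium that secretes cerebrospinal fluid: its list of 8 genes took 0.340% of counts in WT 3 against 0.00769%, 0.0115% and 0.00560% in WT 1, WT 2 and WT 4. Xist, the RNA that coats the inactive X chromosome of female cells, had no count in any of the 4 libraries, and the Y-linked gene Ddx3y stood at 48.7, 59.4, 47.9 and 63.1 CPM, so that all 4 had the pattern of male tissue.

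A small number of genes took a large part of the counts. On average 13231 ± 181 genes (SD, n = 4) were above 1 CPM, and 451 ± 56.4 genes held 50% of all counts. By mean level, 75 genes lay above 1000 CPM and took 30.7% of counts, 1755 genes between 100 and 1000 CPM took 42.5%, and 6798 genes between 10 and 100 CPM took 24.6%. A further 4720 genes between 1 and 10 CPM took 2.03%, and 15074 of the 33000 genes in the table had no count at all. Protein-coding genes took 89.0%, 85.3%, 91.9% and 86.9% of counts in WT 1 to WT 4. That share was lowest in WT 2 and highest in WT 3, the reverse of the 2 mitochondrial ribosomal RNAs, which took 7.90%, 11.6%, 5.45% and 9.50%.

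The 20 most abundant genes took 22.0%, 25.3%, 19.3% and 23.8% of counts, and 17 of the 20 were among the first 20 in every library. Of the 20, 7 were encoded by mitochondrial DNA. The 16S ribosomal RNA of the mitochondrion, mt-Rnr2, ranked first in all 4 libraries, at 62141, 93388, 41776 and 71743 CPM. The next, mt-Nd1, a subunit of respiratory complex I, stood at 20386, 19485, 21669 and 20914 CPM, so the order of the libraries for the ribosomal RNA was not that of this mRNA. Cytochrome b, mt-Cytb, had a mean of 18994 ± 609 CPM and the 12S ribosomal RNA, mt-Rnr1, one of 18785 ± 4925 CPM. Malat1, a long noncoding RNA kept in the nucleus, was the most abundant transcript of the nuclear genome, at 17188, 16831, 13142 and 17641 CPM.

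Among nuclear mRNAs Calm2, which encodes the calcium sensor calmodulin, stood at 6525, 5172, 6270 and 5221 CPM. Fth1, the heavy chain of the iron store ferritin, had a mean of 7453 ± 1290 CPM, and Cst3, the secreted protease inhibitor cystatin C, one of 5986 ± 613 CPM. Glia were represented by Apoe, the lipid carrier made largely by astrocytes, at 4365 ± 604 CPM and by Mbp, the myelin basic protein, at 4255 ± 818 CPM. Neurons were represented by Snap25, the synaptic membrane-fusion protein, at 4246 ± 367 CPM and by Cpe, which trims neuropeptide precursors, at 3194 ± 439 CPM. Other members of the 20 were mt-Nd4, mt-Nd2, mt-Nd5, the actin-binding peptide gene Tmsb4x, the prostaglandin D synthase gene Ptgds, the cytochrome oxidase subunit gene Cox4i1 and Yam1, a noncoding RNA. All of the 20 genes were also the 20 most abundant in the WT libraries made from 10 ng. Dividing by gene length kept 10 of them, and most of the genes that came in were mitochondrial transfer RNAs.

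**Figure D1:**
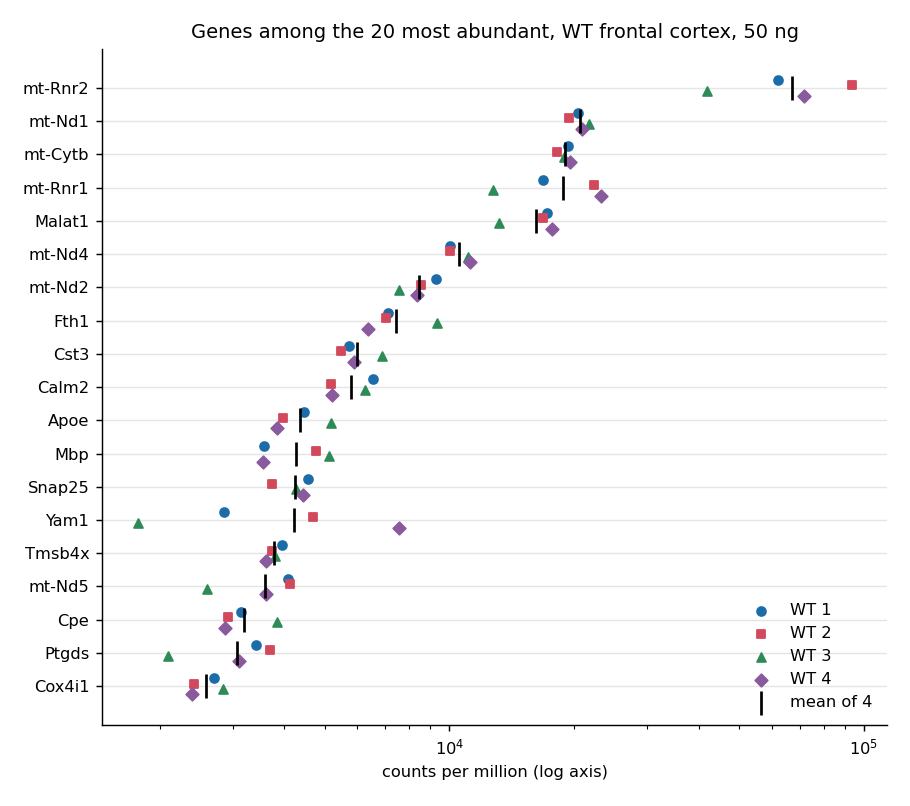
Level of genes among the 20 most abundant in each of the 4 WT libraries at 50 ng, in CPM on a log axis, with 1 symbol per library and a black tick at the mean. Most genes lie within a narrow range, whereas Yam1 runs from 1771 CPM in WT 3 to 7569 CPM in WT 4.

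Of these transcripts mt-Rnr2, mt-Rnr1, Malat1 and Yam1 are not ordinary polyadenylated mRNAs. The longest run of A in each is shown as a place where an oligo-dT primer could pair. The sequences are from GENCODE vM21 transcripts on GRCm38, with the longest run of A in capitals.
mt-Rnr2 (chrM:1477-1506, plus strand): ttaaacttgctAAAAAAAcaacaaaatcaa
mt-Rnr1 (chrM:693-722, plus strand): tcagcaaaccctAAAAAggtattaaagtaa
Malat1 (chr19:5795979-5796008, minus strand): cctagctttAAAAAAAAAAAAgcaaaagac
Yam1 (chr17:39847155-39847184, plus strand): gcgtttactttgAAAAAAttagagtgttca
The runs were 7, 5, 12 and 6 bases long. In all, the 4 transcripts held 4, 0, 5 and 1 runs of at least 6 A, and the median longest run over all genes is 5. Such runs are common, since 49.3% of the 32593 genes with a vM21 transcript hold a run of at least 6 A and 22.0% one of at least 8. The Malat1 run ends 298 bases before the annotated end of the transcript, and the mt-Rnr2 run 1181 bases before it. Where in these transcripts the reads began was not tested, since the counts carry no positions. Yam1 (chr17:39846958-39848788, named Gm42418 in vM21) lies on the other strand from an annotated ribosomal RNA gene, and whether the counting used strand is not stated. That neighbour has its own entry in the count table as Rn18s-rs5, at 1.11, 5.27, 1.67 and 1.59 CPM, far below Yam1 in every library.

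Mitochondrially encoded genes together took 14.9%, 18.3%, 12.4% and 16.6% of counts. Their ribosomal RNAs took 8.60 ± 2.58% and their mRNAs 6.53 ± 0.153% (SD, n = 4), so that nearly all of the spread lay in the ribosomal RNAs: the ratio of ribosomal RNA to mRNA was 1.20, 1.82, 0.845 and 1.42. The 22 transfer RNA genes took 0.391 ± 0.0709%, led by mt-Tv at 760 ± 155 CPM, which lies between the 2 ribosomal RNA genes.

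The 13 protein-coding genes of the mitochondrion were detected very unequally. Of the 13, 8 were above 1 CPM in every library, from 79.3 ± 15.3 CPM for mt-Nd6 to 20614 ± 918 CPM for mt-Nd1. Cytochrome oxidase subunit 3, mt-Co3, and the complex I subunit mt-Nd4l had no count in any library. Subunit 2 of the same oxidase, mt-Co2, and the ATP synthase subunits mt-Atp6 and mt-Atp8 had 1 count each over all 4 libraries. By contrast mt-Co1, the remaining oxidase subunit encoded there, had 2443, 2648, 2238 and 2626 CPM.

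Chromosome 1 of the reference carries a nuclear copy of a stretch of mitochondrial DNA, annotated as 7 unprocessed pseudogenes between positions 24611535 and 24616197 of GRCm38, and the authors counted uniquely aligned reads only. The 7 pseudogenes have no row in the count table. Every stretch of 75 bases in each protein-coding mitochondrial gene was looked up in these copies without a mismatch. Of the stretches in the last 200 bases of each gene, the copies held 97.6% for mt-Co2, mt-Atp6 and mt-Nd4l and 99.2% for mt-Co3, and they held 0% for mt-Nd1, mt-Nd2, mt-Nd4, mt-Nd5, mt-Nd6 and mt-Cytb. Over its whole length mt-Nd4, at a mean of 10576.5 CPM, had 61.5% of its stretches in a copy. At the gene ends, level and match went separate ways in 3 genes. The complex I subunit mt-Nd3 had 97.6% of its last stretches in a copy and still 551 ± 140 CPM. All of the last stretches of mt-Co1 had a match, but only 27.5% of those over its whole length. And mt-Atp8, with 1 count, had 0%, and no annotated copy of it was found. The ends of mt-Atp8 and mt-Nd4l overlap the starts of mt-Atp6 and mt-Nd4 on the same strand. What part the overlap had in their counts was not tested. The 30 bases that mt-Co3 and mt-Co2 share with their copies nearest to the gene's end are shown. They mark where the match ends and are shorter than the 75 bases of the stretches looked up.
mt-Co3 (chrM:9360-9389, plus strand) and Gm28437 (chr1:24613189-24613218, minus strand): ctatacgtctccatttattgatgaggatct
mt-Co2 (chrM:7664-7693, plus strand) and Gm28661 (chr1:24614885-24614914, minus strand): tatttcgaaaactgatctgcttcaataatt
Whether the rule on unique alignment set these levels was not tested. The share of counts given above for mitochondrial mRNA therefore covers the detected genes only.

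**Figure D2:**
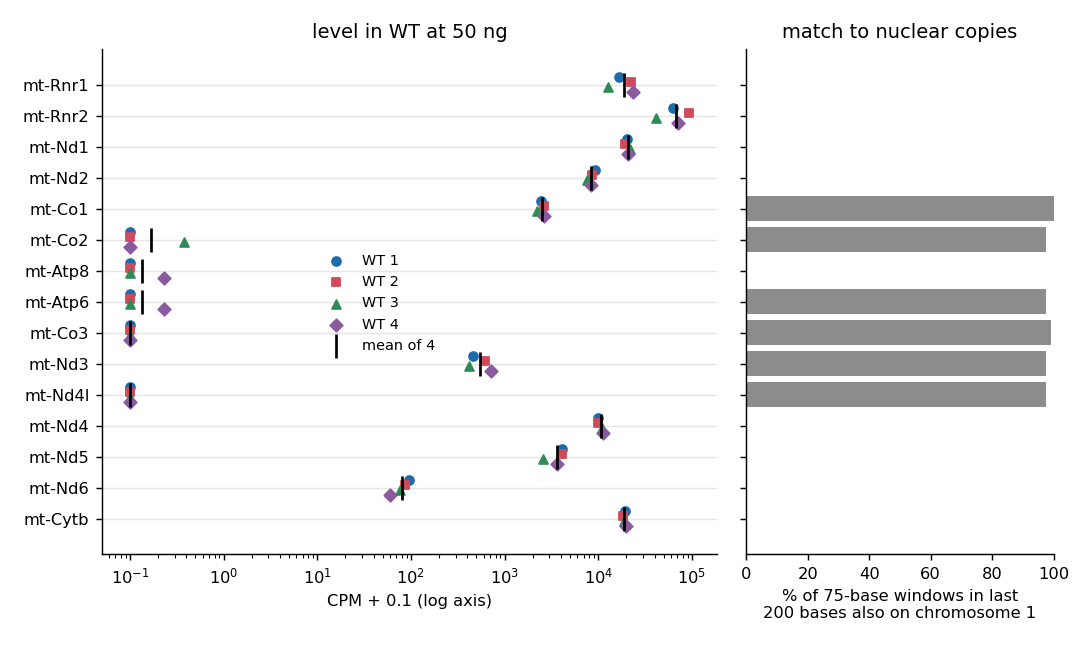
Left, CPM + 0.1 on a log axis for the 2 mitochondrial ribosomal RNAs and the 13 protein-coding genes in gene order, with 1 symbol per WT library at 50 ng (offset vertically) and a tick at the mean. Right, the percent of 75-base stretches in the last 200 bases of each gene that also occur in the chromosome 1 pseudogenes, which is high for mt-Co2, mt-Atp6, mt-Co3 and mt-Nd4l, all at or near 0 CPM, and also for mt-Co1 and mt-Nd3, which were counted.

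The nuclear genes of oxidative phosphorylation, which supply most subunits of the respiratory chain, took 5.20%, 4.69%, 5.11% and 4.83% of counts. Of the 84 genes on this list, 82 were above 1 CPM in all 4 libraries. The cytochrome oxidase subunit gene Cox4i1 had 2588 ± 217 CPM, Ndufa4 2307 ± 110 CPM, Cox6a1 2101 ± 145 CPM and Cox8a 1813 ± 123 CPM. Cytosolic ribosomal protein genes took 2.88%, 2.93%, 2.63% and 3.03%, with 83 of 86 genes above 1 CPM in all 4. Their highest members were Rps14 at 1382 ± 91.7 CPM and Rplp1 at 859, 957, 706 and 1057 CPM. WT 3 was lowest for 61 of the 83 ribosomal protein genes with a mean over 1 CPM, and at 10 ng for 64 of them. With mitochondrially encoded genes left out of the total the list stood at 3.39%, 3.58%, 3.00% and 3.64%, and WT 3 was again the lowest.

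Cell type lists differ in size and in the level of their members, so that their shares give neither shares of cells nor an order of cell types. A list of 12 pan-neuronal genes took 0.934%, 0.855%, 0.937% and 0.936% of counts. Snap25 made up much of it, at 4561, 3726, 4269 and 4428 CPM. The calcium sensor of synaptic vesicles, Syt1, stood at 1478, 1553, 1528 and 1444 CPM, and the neurofilament light chain Nefl at 671, 646, 647 and 669 CPM. Nefl and Syt1 thus had a narrow range over the 4 libraries, whereas Snap25 was lowest in WT 2.

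Markers of glutamatergic neurons took 0.154 ± 0.0160% and those of GABAergic neurons 0.228 ± 0.0105%. The former were led by Nrgn, a calmodulin-binding protein of dendrites, at 615, 630, 923 and 745 CPM, with WT 3 the highest, followed by the transcription factor Neurod6 at 204 ± 27.2 CPM and the kinase Camk2a at 196 ± 8.25 CPM. The vesicular glutamate transporter Slc17a7, a defining marker, had only 38.0 ± 6.08 CPM. Neuropeptides led the latter, Npy at 759 ± 54.8 CPM and Sst at 620 ± 47.6 CPM, ahead of the GABA-synthesising enzyme Gad1 at 244 ± 22.3 CPM and the calcium buffer Pvalb at 243 ± 37.7 CPM. All 12 members of the GABAergic list and 11 of 12 of the glutamatergic list were above 1 CPM in every library. Cck, a peptide of many cortical neurons, was the highest gene of a neuropeptide itself, at 2065, 2016, 2001 and 2168 CPM.

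Genes of calcium signalling took 2.64 ± 0.0855% of counts, more than the 1.02 ± 0.0470% taken by the genes of vesicle release. Genes of the cytoskeleton took 1.34% to 1.46% and those of glycolysis 0.761 ± 0.0925%. A list of 9 long noncoding RNAs known from brain took 1.83 ± 0.217%, of which Malat1 held most, with the imprinted Meg3 at 1280 ± 90.7 CPM and Neat1, a scaffold of nuclear bodies, at 15.6 ± 3.79 CPM.

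Among glia, oligodendrocyte genes took the largest share and differed most between libraries, at 0.558%, 0.768%, 0.764% and 0.564%. Mbp stood at 3562, 4778, 5128 and 3555 CPM, and Cnp, an enzyme of myelin membranes, at 250.2, 338, 327 and 263 CPM. WT 2 and WT 3 were above WT 1 and WT 4 for both genes. Of the 12 oligodendrocyte genes, 6 were highest in WT 2 and the other 6 in WT 3. The list held the same order of WT 2 and WT 3 above the others at 10 ng, at 0.542%, 0.776%, 0.768% and 0.567%. Progenitor markers took 0.0133 ± 0.00161%, most of it Olig1, a transcription factor of the whole lineage, at 101 ± 16.4 CPM.

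Astrocyte genes took 0.355%, 0.320%, 0.390% and 0.341%. Their highest member was Aldoc, the aldolase of astrocytes, at 1650, 1385, 1948 and 1508 CPM, followed by the glutamate transporter Slc1a2 at 975, 943, 913 and 1031 CPM. The intermediate filament gene Gfap was at the low end, from 8.89 CPM in WT 4 to 14.5 CPM in WT 3. Microglial genes took 0.0797%, 0.0764%, 0.0859% and 0.0777%, led by the protease gene Ctss at 178 ± 17.9 CPM, and all 12 were above 1 CPM in every library. The purine receptor P2ry12, which marks resting microglia, stood at 67.1 ± 7.47 CPM.

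Vascular and blood genes were minor. Endothelial markers took 0.0282 ± 0.00329% and mural markers 0.0166 ± 0.000643%, with Itm2a at 104 ± 15.9 CPM and the pericyte gene Vtn at 47.9 CPM on average. The tight-junction gene Cldn5 and the adhesion gene Pecam1, both defining for endothelium, were at 2.25 and 0.492 CPM. Fibroblast and meningeal markers took 0.00443 ± 0.00151%. Haemoglobin and other red cell genes took 0.0429%, 0.0363%, 0.0509% and 0.0346%, with WT 3 the highest.

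Several genes known to be abundant in brain had low counts, among them Actg1, the cytoplasmic gamma actin, at 1.66, 2.26, 3.90 and 2.79 CPM beside 1975 ± 182 CPM for Actb, and Mt3, the brain metallothionein, at 14.8 ± 2.80 CPM beside 1111 ± 158 CPM for Mt1. Actg1, Mt3 and Slc17a7 were chosen after their values were seen. No other vM21 gene has an exon over the last 300 bases of these 3 genes. The annotation of the counts was an earlier release, and why the levels are low was not tested.

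**Figure D3:**
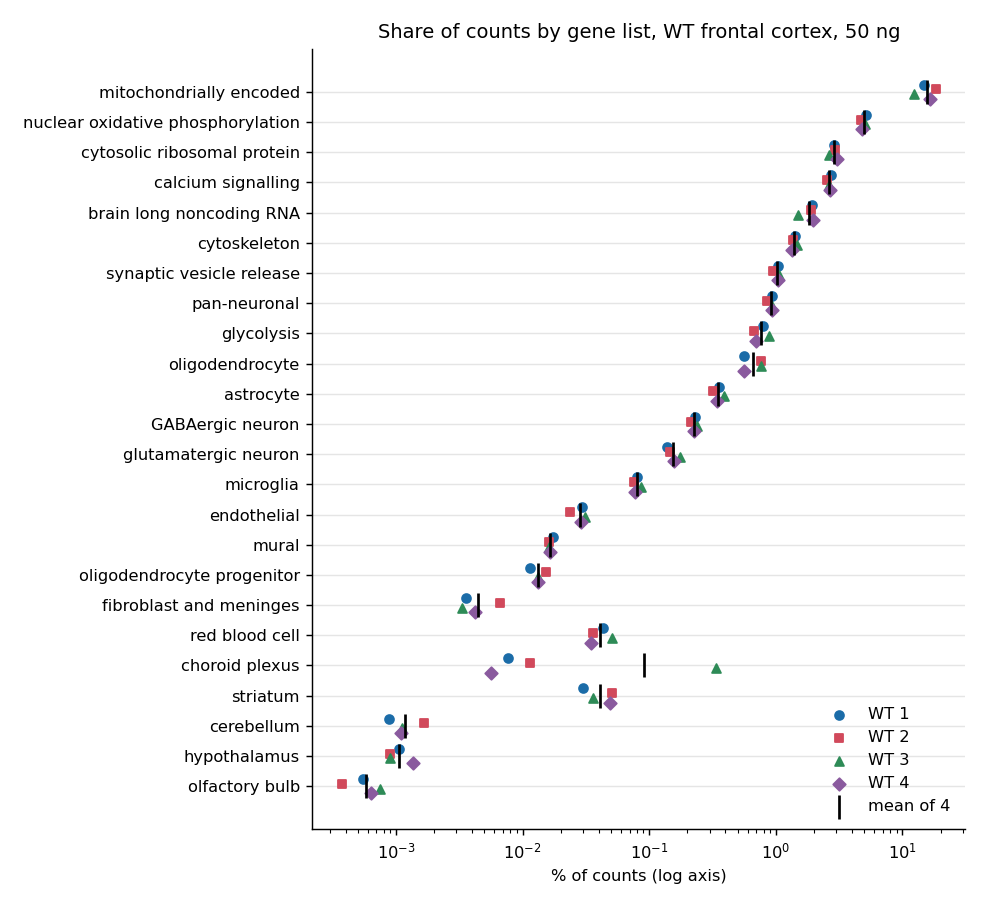
Percent of counts taken by 24 gene lists in each of the 4 WT libraries at 50 ng, on a log axis, with a tick at the mean. Most lists lie within a narrow range, choroid plexus markers in WT 3 lie far to the right of the other libraries, and cerebellar, hypothalamic and olfactory bulb markers lie at the far left.

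Markers of other brain regions were also examined. Those of cerebellum, hypothalamus and olfactory bulb took 0.00119 ± 0.000329%, 0.00105 ± 0.000222% and 0.000579 ± 0.000158%, and the cerebellar Gabra6 and Pcp2 and the bulb genes Eomes and Tbx21 had no count in any library. In WT 1, WT 2 and WT 4 the choroid plexus share was nearly all Ttr, the thyroid hormone carrier transthyretin, at 72.5, 111 and 52.7 CPM. In WT 3 Ttr reached 3355 CPM. The folate receptor gene Folr1 stood at 0.277, 0, 13.9 and 0.663 CPM and the ion channel subunit gene Kcne2 at 0.553, 0, 4.45 and 0.265 CPM. All 8 members, of which Aqp1 had 2 counts in all, were highest in WT 3, and 7 of the 8 were at 10 ng, where Ttr stood at 50.6, 91.1, 3003 and 46.8 CPM. Without WT 3 the list's mean share fell from 0.0912 ± 0.166% to 0.00827 ± 0.00300%.

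A list of thalamic and hippocampal markers took 0.0478 ± 0.00321%, most of it Calb1 at 267 ± 25.2 CPM and Rora at 142 ± 9.08 CPM, both of which cortical neurons also express.

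Striatal markers, which name the neurons of the region beneath the cortex, took 0.0300%, 0.0505%, 0.0358% and 0.0487%. WT 2 and WT 4 were thus above WT 1 and WT 3, and the same held at 10 ng, at 0.0274%, 0.0481%, 0.0328% and 0.0452%. The opioid precursor Penk stood at 70.01, 129, 78.5 and 117 CPM and the signalling regulator Rgs9 at 2.49, 15.8, 2.504 and 10.2 CPM. Both were higher in both WT 2 and WT 4 than in WT 1 or WT 3. Of the 7 members with a mean over 1 CPM, 4 were highest in WT 2 and 3 in WT 4. Pde10a did not keep this order, with WT 3 above WT 2 at both inputs. It stood at 45.9 CPM in WT 2 and 47.6 CPM in WT 3 at 50 ng, and at 37.6 and 39.9 CPM at 10 ng. Of the defining receptors, Drd1 was at 7.47, 13.5, 6.12 and 14.2 CPM, Adora2a had 1 count over all 4 libraries and Drd2 none. Cortex also expresses several of these genes, and the part that adjoining tissue had in the differences was not tested.

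Genes that respond to the animal's state were examined as well. Immediate early genes, which neurons switch on with activity, took 0.0546%, 0.0450%, 0.0693% and 0.0537%, most of it Egr1 at 276, 229, 404 and 270 CPM, with WT 3 the highest. Circadian genes took 0.0456 ± 0.00564%, led by Dbp at 103 CPM on average (90.7 to 115 CPM), and glucocorticoid targets 0.0313 ± 0.00251%, led by Tsc22d3 at 122 ± 18.5 CPM. Chaperone genes took 0.561 ± 0.0338%, led by Hsp90ab1 at 2102, 2382, 2275 and 2897 CPM, with WT 4 the highest. Replication-dependent histone genes, whose mRNAs mostly lack a poly(A) tail, took 0.0379 ± 0.00309%, and 30 of the 68 had no count.

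How much genes varied between the 4 libraries was measured by the biological coefficient of variation, the relative spread left after counting noise, as edgeR estimates it. For a single gene edgeR draws this estimate towards the trend of genes at its level, so low values are compressed. Its common value was 0.124 at 50 ng and 0.189 among the WT libraries at 10 ng. Over the 5142 genes with a mean of at least 30 CPM the gene-wise value had a median of 0.109, and 95% of these genes were below 0.134. Few genes lay far out. Ttr was the most variable, at 0.706, followed by Yam1 at 0.265, which stood at 2861, 4700, 1771 and 7569 CPM. Both ribosomal RNAs of the mitochondrion were among the 20, mt-Rnr2 at 0.186 and mt-Rnr1 at 0.168.

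The striatum-enriched genes Dgkb, Pde10a and Scn4b, of which Pde10a is on the striatal list, were also among the 20. Dgkb, a diacylglycerol kinase, stood at 55.3, 73.0, 33.1 and 94.2 CPM, and Pde10a, a phosphodiesterase, at 24.1, 45.9, 47.6 and 64.5 CPM. Also among the 20 were Zfp800, Rbm26, Ubap2l, Mtif2, Ngly1, Cml1, Srrm3, Bag6, Taz, BC048546, Tln2 and Slco3a1. Ubap2l, which encodes an RNA-binding protein of stress granules, had the highest mean of these 12, at 112, 145, 57.6 and 96.0 CPM. The 20th and 21st genes, Slco3a1 and Ovol2, were hardly apart, at 0.168 and 0.167. At the other end, Cap2, Fbxo9 and Eef1g had the smallest estimates, with Eef1g, a translation elongation factor subunit, at 148, 138, 151 and 145 CPM. They were not the genes with the smallest raw spread. The SD of CPM was 5.07% of the mean for Cap2 and 1.07% for Nmt1.

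**Figure D4:**
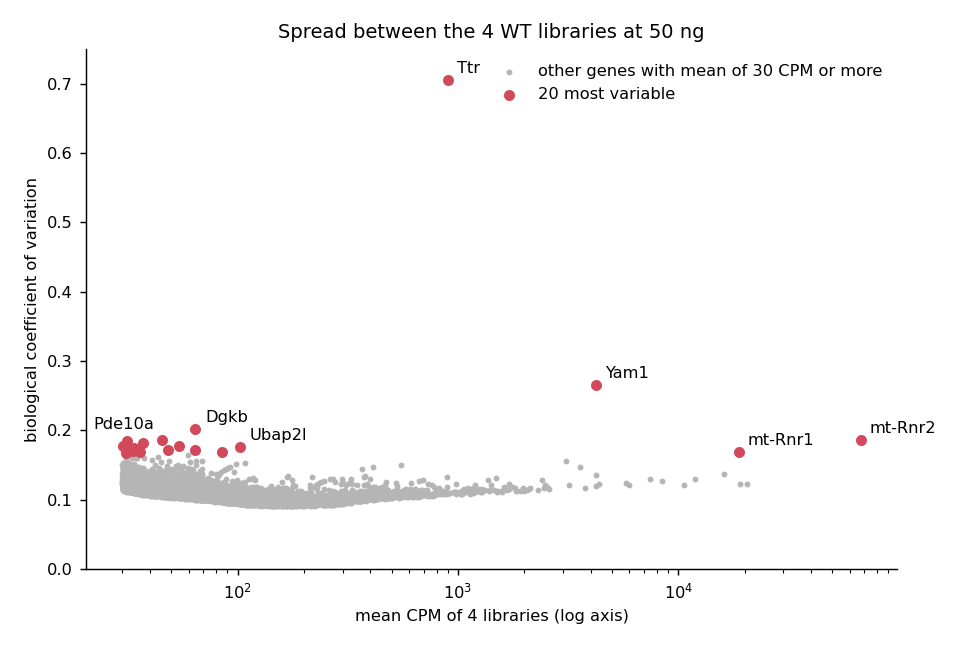
Biological coefficient of variation against mean level, in CPM on a log axis, for the 5142 genes with a mean of at least 30 CPM in the 4 WT libraries at 50 ng. The 20 most variable genes are in red, with Ttr at 0.706 and Yam1 at 0.265 apart from the rest, and the median gene is at 0.109.

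The libraries made from 10 ng show how far these differences recur. Of the 20 most variable genes, 14 had the same highest number and 14 the same lowest number at both inputs, against 46.9% and 41.3% of all genes with a mean of at least 30 CPM. A difference between the 4 numbers was then tested over the 8 WT libraries with input as a covariate (edgeR quasi-likelihood F test, Benjamini-Hochberg adjusted p under 0.05). It was called for 944 of the 12473 genes tested, 7.57%. The share called rose steeply with level, from 15.9% of genes with a mean of at least 30 CPM to 32.1% at 100 CPM and 78.7% at 1000 CPM, so the calls of a list are read against the share called at its level. WT 3 weighed most: without number 3 the test called 252 genes. Of the 944, number 3 was the highest at both inputs for 282 and the lowest at both for 285. Over all 5142 genes with a mean of at least 30 CPM these counts were 1356 and 403. Over the 11529 genes tested and not called, at any level, they were 2153 and 507. As a share, the first count is thus near that of the 5142 genes and above that of the genes not called. The second lies well above both.

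The 10 genes with the smallest p included Ttr, Yam1, mt-Rnr2, mt-Rnr1, Ptgds, mt-Nd5, Malat1, Mbp and Fth1, with adjusted p from 7.29e-59 for Ttr to 4.23e-16 for Fth1 by the edgeR quasi-likelihood test. Without number 3, 9 of the 10 were still called. Ptgds, which is made by meninges and oligodendrocytes, stood at 3407, 3702, 2094 and 3113 CPM at 50 ng and at 3398, 3598, 1944 and 2962 CPM at 10 ng. WT 3 was the lowest for it at both inputs, unlike for Mbp. Fth1 went the other way, with 7103, 7032, 9320 and 6356 CPM and WT 3 the highest. The choroid plexus channel gene Kcnj13, at 2.21, 0.752, 28.7 and 6.10 CPM, had its highest value in WT 3 like Ttr, and Enpp2, which choroid plexus and oligodendrocytes both make, stood at 267, 272, 422 and 236 CPM. Kcnj13 and Enpp2 were chosen after their values were seen.

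Because the share called depends on level, the lists are given within ranges of mean level. Between 30 and 100 CPM, where 7% of all genes were called, a difference was called for 4 of 4 striatal and 4 of 7 oligodendrocyte genes, and for 0 of 5 ribosomal protein and 0 of 5 microglial genes. Between 100 and 1000 CPM, where 30.1% were called, it was called for 58 of 75 ribosomal protein genes and 12 of 14 mitochondrially encoded genes. In the same range the count was 21 of 61 for nuclear oxidative phosphorylation and 4 of 10 for pan-neuronal genes, shares of 34.4% and 40% that are near the one over all genes, and 7 of 12 for vesicle release. At 1000 CPM or more, where 78.7% were called, it was 7 of 8 for mitochondrially encoded genes and 8 of 12 for nuclear oxidative phosphorylation. Without number 3 the test called 2.04% of all genes and 4.49% of those with a mean of at least 30 CPM, or 1.27%, 8.32% and 57.3% in the 3 ranges from low to high. Among members at that level it then called 5 of 5 striatal genes, as with all numbers, and 4 of 11 oligodendrocyte genes against 8 of 11 with all numbers. For ribosomal proteins the count went from 59 of 81 to 6 of 81, 5 of them among the 75 between 100 and 1000 CPM, and for astrocytes from 5 of 11 to 0 of 11.

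**Figure D5:**
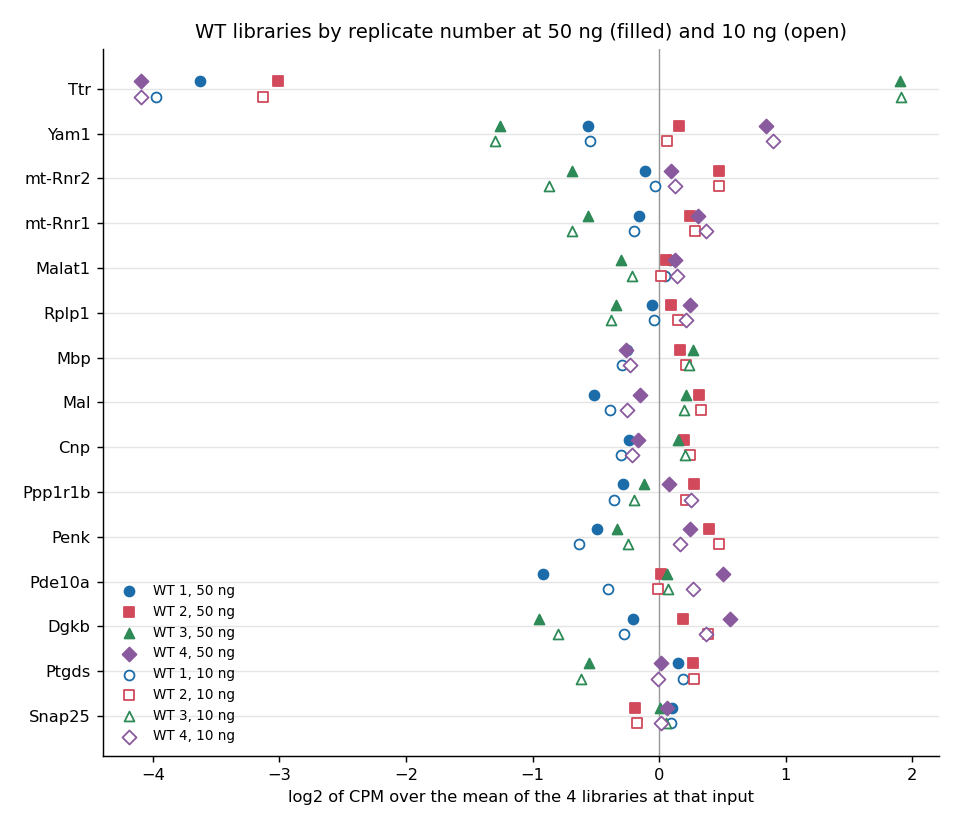
Level of named genes in each WT library as log2 of its CPM over the mean of the 4 libraries at that input, with 50 ng filled and 10 ng open and 1 symbol and colour per replicate number. For Ttr, Yam1, the mitochondrial ribosomal RNAs and Mbp the filled and open symbols of a number lie close together, with number 3 at one end.

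Few differences were called between the 2 inputs when replicate number was left out of the fit. No gene of the 11727 tested was called between 50 and 10 ng (edgeR quasi-likelihood test, adjusted p under 0.05 and a log2 fold change above 1 in size), which is 0%. At an unadjusted p under 0.05 there were 631 genes, and the smallest adjusted p was 0.0920. The DESeq2 Wald test called 1 gene, Gm8797. With replicate number as a block, edgeR called 7 genes, and 190 by adjusted p alone. Of the 36 lists none was called by its share of counts in the two-sided exact permutation test, and the smallest adjusted p was 0.949. The smallest p that 4 against 4 libraries allow is 0.0286, so after adjustment over 36 lists no list could be called on its own. None had an unadjusted p under 0.05 by that test either. Ribosomal protein genes were lower at 50 ng in all 4 same-numbered pairs, as 20 of the 36 lists moved one way in all 4, with means of 2.87 ± 0.172% and 3.25 ± 0.251% (exact permutation p = 0.0857, adjusted p = 0.949, n = 4). Genes above 1 CPM numbered 13231 ± 181 at 50 ng and 13167 ± 159 at 10 ng (exact permutation p = 0.571, n = 4). After thinning to the lowest total the difference was 204 genes, higher at 50 ng (exact permutation p = 0.0286, n = 4). Mitochondrial mRNA took 6.53 ± 0.153% at 50 ng and 5.97 ± 0.180% at 10 ng, and its 2 groups did not overlap. The exact permutation p was 0.0286, with an adjusted p of 0.0857 over the 3 classes of mitochondrial RNA (n = 4). This comparison was added after the values were seen. Each of the 36 lists overlapped between the inputs. These permutation tests leave out replicate number, and the smallest p that 4 same-numbered pairs allow in a sign-flip test is 0.125.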

How the data were processed

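Total RNA from frontal cortex of WT mice was made into 3'Pool-seq libraries, and single-end reads were demultiplexed, trimmed of poly(A) and aligned by the authors with STAR 2.4, after which uniquely aligned reads were counted per GENCODE gene with featureCounts. The deposited values are whole-number counts for 33000 genes, not normalized and without molecular identifiers, so counts are reads rather than molecules. The study's methods give a mouse build, while the submitters' processing notes name a human one, so coordinates here were taken by gene identifier from GENCODE vM21 on GRCm38, which held 32593 of the identifiers. The strand setting is not given in the sources used here.

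Groups were taken from the sample titles. CPM was computed from the table's totals, and the share of a list is its percent of all counts. Named genes are the 20 highest by mean CPM, mitochondrial genes above 1 CPM in every library, up to 4 highest members of each of 36 gene lists and those without a count, the 20 with the largest gene-wise biological coefficient of variation among genes with a mean of at least 30 CPM, up to 5 genes called in each direction between inputs, the 10 with the smallest p between replicate numbers, and the sex-linked genes. Genes named outside this rule were chosen after their values were seen. The libraries, lists and tests were chosen with earlier results of these data known, and the sequence comparison of mitochondrial genes was added on seeing their counts.

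Tests across genes used edgeR 4.0.16 (TMM, filterByExpr, quasi-likelihood) with DESeq2 1.42.0 as an alternative, in R 4.3.3. Shares and detection were compared by two-sided exact permutation tests. The fits were tested on simulated data. Counts of any 2 of the 4 libraries differed by 2.89 to 12.9 times the sampling noise (chi-square per degree of freedom), so none was taken to be a library deposited more than once. Depth ran from 1329425 to 7538356 counts, so that 1 count is worth 0.752 CPM in the shallowest library and 0.133 CPM in the deepest. The alternatives tried were each library left out, thinning to the lowest total, mitochondrially encoded genes left out of the total, other detection and level minimums, division by gene length, DESeq2 size factors and tests, no filter, and a replicate block. Some genes that meet the rule for named genes are not reported here.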

Additional observations from a re-analysis of the deposited data

Results flagged for a closer look

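In each group of 4 libraries the highest or lowest value was compared with the rest by Dixon's ratio, which chance alone exceeds in about 1 of 20 groups. Of 175 named genes, 10 exceeded it, and of 44 shares and library measures, 4 did. The count of genes is near the rate of chance, so a single gene flagged here cannot be told from chance by this ratio. Some of the 175 were also picked for their spread or their small p in these data. WT 3 was the library concerned for 6 of the 10 genes. Choroid plexus markers took 0.340% of counts in WT 3, against at most 0.0115% elsewhere, and their members Ttr, at 3355 CPM, Folr1, at 13.9 CPM, and Clic6, at 10.02 CPM, stood out there too. The astrocyte receptor gene Ntsr2 was highest in WT 3, at 316 CPM against 193 to 211 CPM, as were mt-Ts2, at 157 CPM against 101 to 109 CPM, and mt-Tl2, at 237 CPM against 147 to 162 CPM. The share of the 9 listed long noncoding RNAs was lowest there, at 1.51% against 1.90% to 1.97%.

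In WT 2, the shallowest library, pan-neuronal genes took 0.855% against 0.934% to 0.937%, and genes of vesicle release 0.954% against 1.04% to 1.06%. With mitochondrially encoded genes left out of the total, the pan-neuronal share of WT 2 was 1.05% and that of the others 1.07% to 1.12%. Npy was lowest in WT 2, at 677 CPM against 777 to 793 CPM, and Eif2s3y likewise, at 39.9 CPM against 46.0 to 47.0 CPM, whereas Kdm5d was highest, at 15.8 CPM against 10.5 to 11.1 CPM. In WT 4, Cox8a was highest, at 1994 CPM against 1730 to 1773 CPM.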

How the results depend on the processing

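The genes called in the main fits were called between replicate numbers only, by an F test that gives no direction. No called result therefore had a direction that could reverse under the alternatives run. The difference in share between 50 and 10 ng, not called in any of these fits, changed sign for oligodendrocyte genes, from 0.000537 to -0.00153 percentage points with mitochondrially encoded genes left out of the total and to -0.00469 without replicate 1, and for glutamatergic genes from -0.000691 to 0.00169 without replicate 1. Genes above 1 CPM numbered 13014 after thinning to the lowest total, 10323 at a minimum of 5 CPM and 15568 at 1 count. With mitochondrially encoded genes left out of the total, 728 genes held 50% of counts and the first 20 genes 11.1%. Shares then rose to 3.40% for ribosomal protein genes, 5.87% for nuclear oxidative phosphorylation, 1.08% for pan-neuronal, 0.183% for glutamatergic, 0.269% for GABAergic, 0.415% for astrocyte, 0.786% for oligodendrocyte, 0.0158% for progenitor, 0.0946% for microglial and 0.0334% for endothelial genes. Dividing by gene length kept 10 of the 20 most abundant genes. The common biological coefficient of variation ran from 0.107 to 0.132 with 1 library left out, the lowest without replicate 3.

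Membership of the 20 most variable genes depended on the settings. Of the 20, 9 were kept after thinning, 10 by the SD of log2(CPM + 1), 2 at a minimum of 10 CPM, 5 at 100 CPM and 8 to 13 with 1 library left out. Ttr and Yam1 were among the 20 in all 9 alternatives.

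Between 50 and 10 ng, thinning gave a difference of 204 detected genes (exact permutation p = 0.0286, n = 4), the DESeq2 Wald test called 1 gene, no filter on low counts 3, and leaving out 1 number at both inputs 0 to 1. With a replicate block, edgeR called 7 genes, and 190 by adjusted p alone, of which 39 of the 126 lower at 50 ng were ribosomal protein genes. The pairing of numbers rests on the data only: same-numbered libraries deviated together with a correlation across genes of 0.0947, 0.0857, 0.250 and 0.106, and every library correlated best with its own number. Over the genes with a mean of at least 30 CPM the same-numbered correlations were 0.286, 0.250, 0.560 and 0.382. A paired sign-flip test of the list shares gave a smallest adjusted p of 0.225 and one of detection an exact p of 0.125, the smallest that 4 pairs allow.

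Between replicate numbers, 523 genes were called by the DESeq2 likelihood ratio test and 578 after thinning. With 1 number left out 252 to 906 were called, the fewest without replicate 3. In the WT libraries at 10, 1 and 0.5 ng 15 of the 10572 genes tested were called (0.142%), all 15 among the 944. The 10 ng libraries were in both fits, so that overlap is not independent. Of the 10 genes with the smallest p, 9 were still called without replicate 3. Depth limits what can be said of genes below 2.26 CPM in WT 2, the level of 3 counts.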

Other observations

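Trbc2 and Ighm, constant-region genes of lymphocyte antigen receptors, stood far above the other genes of those cells that were looked up. Trbc2, the constant segment of the T cell receptor beta chain, stood at 77.2, 82.7, 89.9 and 70.04 CPM, whereas Cd3e, Cd3d and Cd3g, which every T cell receptor needs at the surface, had no count in any WT library at 50 ng and Trbc1 a mean of 0.102 CPM. Ighm, the constant region of immunoglobulin M, stood at 59.2, 60.9, 66.5 and 53.7 CPM, and the B cell genes Cd79a and Ms4a1 at 0.0332 and 0 CPM on average. Igkc, Cd79b and Cd4 were counted at low levels, with means of 1.55, 0.589 and 0.338 CPM. Trbc2 and Ighm differed little between libraries, with biological coefficients of variation of 0.103 and 0.105, and neither was called between replicate numbers. The source of these reads was not tested.

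Snord49b, a small nucleolar RNA, stood at 10.8, 6.02, 5.57 and 47.1 CPM at 50 ng and at 13.4, 6.60, 5.30 and 34.1 CPM at 10 ng, highest in WT 4 at both inputs. It differed between replicate numbers by the edgeR quasi-likelihood test (adjusted p = 4.79e-11). Genes in both paragraphs were chosen after their values were seen.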
